A study of Mus musculus with 6 samples.

Results

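The annexins are a family of calcium-regulated proteins that bind acidic phospholipids on the inner or outer face of cell membranes. The 10 genes described here, Anxa1 to Anxa8, Anxa11 and Anxa13, were taken by gene symbol from a table of 17933 genes. The table also lists Anxa9, which is not among the 10. Kidney RNA was sequenced from 3 samples of the kidney stone group and 3 samples of the control group. The stone group were male wild-type C57BL/6 mice, aged 6 to 8 weeks, that received 120 mg/kg glyoxylic acid into the peritoneum daily for 12 days. The control group were mice of the same sex, strain, genotype and age that received an equal volume of saline. The injected compound is converted to oxalate, which forms calcium crystals in the tubules. The model reflects a chemical load given to young male animals over a short time, and the RNA comes from whole kidney tissue with all its cell types.

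Each annexin carries a conserved core of repeats that binds membrane through calcium, and a variable N-terminal tail that sets its partners. Annexin A2 pairs with S100A10 at the cell surface, where the complex assembles plasminogen with its activator, and it has been described as a binding site for calcium oxalate crystals on cultured renal tubule cells. Annexin A1 is a glucocorticoid-regulated protein that acts on formyl peptide receptors and restrains inflammation. Annexin A5 binds exposed phosphatidylserine, and several members help to reseal injured plasma membrane.

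Expression was given as FPKM, fragments counted per unit of gene length and scaled to the total of the sample, so levels can be compared between genes. FPKM sums over all genes ranged from 609705 to 758514. The kidney-specific thick limb gene Umod was present in both groups, at 936 to 1713 FPKM in stone samples and 1524 to 1749 FPKM in control samples. Groups were compared on log2(FPKM + 1) with limma over the 12319 genes that averaged at least 1 FPKM, and a gene was called at a Benjamini-Hochberg (BH) adjusted p below 0.05. Of these genes 57.4% were called, 43.5% higher and 13.9% lower in stone kidneys, and their overall median log2 fold change was 0.21. Median-of-ratios scaling, which sets the typical gene to no change, moved that median by -0.22 and called 22.5% higher and 26.2% lower. Scaling to equal FPKM sums moved it by 0.24 and called 68.5% higher and 6.47% lower. The gene Kap averaged 9906 FPKM in stone kidneys and 155570 FPKM in control kidneys. With Kap left out of the sums, the median moved by -0.031, and 4528 genes were called higher and 1831 lower.

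Stone sample 3 stood apart from the other libraries in transcripts of the urothelium, the lining of the renal pelvis. The summed level of 8 urothelial markers was 2.62, 10.4 and 379 FPKM in stone samples 1 to 3, against 21.8, 6.07 and 13.0 FPKM in control samples 1 to 3. The marker gene Psca made up 296 of the 379 FPKM, and was at 2.39 to 5.53 FPKM in control samples. The other markers were at 6.20 to 23.2 FPKM in stone sample 3 and at most 4.07 FPKM in control samples. In stone sample 1, the uroplakin gene Upk2 and the keratin gene Krt15 were listed at 0. The sum of 5 markers of the thin limb and papilla was 442, 799 and 1362 FPKM in stone samples 1 to 3, against 571, 490 and 579 FPKM in control samples 1 to 3. Of these 5, Aqp1 is also among the proximal tubule markers. Aqp1 was at 280, 480 and 418 FPKM in stone samples 1 to 3, and 316, 290 and 342 FPKM in control samples 1 to 3. Slc14a2 was at 0.20, 4.61 and 25.8 FPKM in stone samples 1 to 3, against 17.8, 9.31 and 16.7 FPKM in control samples 1 to 3. Because stone sample 3 stood apart in urothelial transcripts, the values of the tested annexins without stone sample 3 are given with each gene.

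As a family the annexins were more abundant in stone kidneys. The summed level of the 10 genes was 506, 577 and 669 FPKM in stone samples 1 to 3, against 297, 297 and 312 FPKM in control samples 1 to 3. The mean sum was 584 ± 81.8 FPKM in stone kidneys and 302 ± 8.76 FPKM in control kidneys (SD, n = 3 each), a ratio of 1.94, and the sums did not overlap. Of the 9 members that averaged at least 1 FPKM, 7 were called higher, against 43.5% of all tested genes, and 0 were called lower. Anxa1, Anxa2, Anxa3 and Anxa5 were called higher by at least 1 log2 unit, a count of 4 against 7.32% of all tested genes. The 3 stone values lay above the 3 control values in 8 of the 9, against 49.8% of all tested genes. Without stone sample 3, 6 of the 9 were called higher, against 35.8% of all tested genes, and without stone sample 1 it was 7, against 42.4%. Median-of-ratios scaling called 6 higher and 1 lower of the 9, against 22.5% and 26.2% of all tested genes. Equal FPKM sums called 8 higher and 0 lower, against 68.5% and 6.47%. The median log2 fold change of the 9 was 0.99, against 0.21 for all tested genes. Anxa1, Anxa2, Anxa3, Anxa4, Anxa5 and Anxa6 were called higher under each of the 17 alternative settings tried. In whole tissue, more cells of a type and more RNA per cell cannot be told apart.

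**Figure D1:**
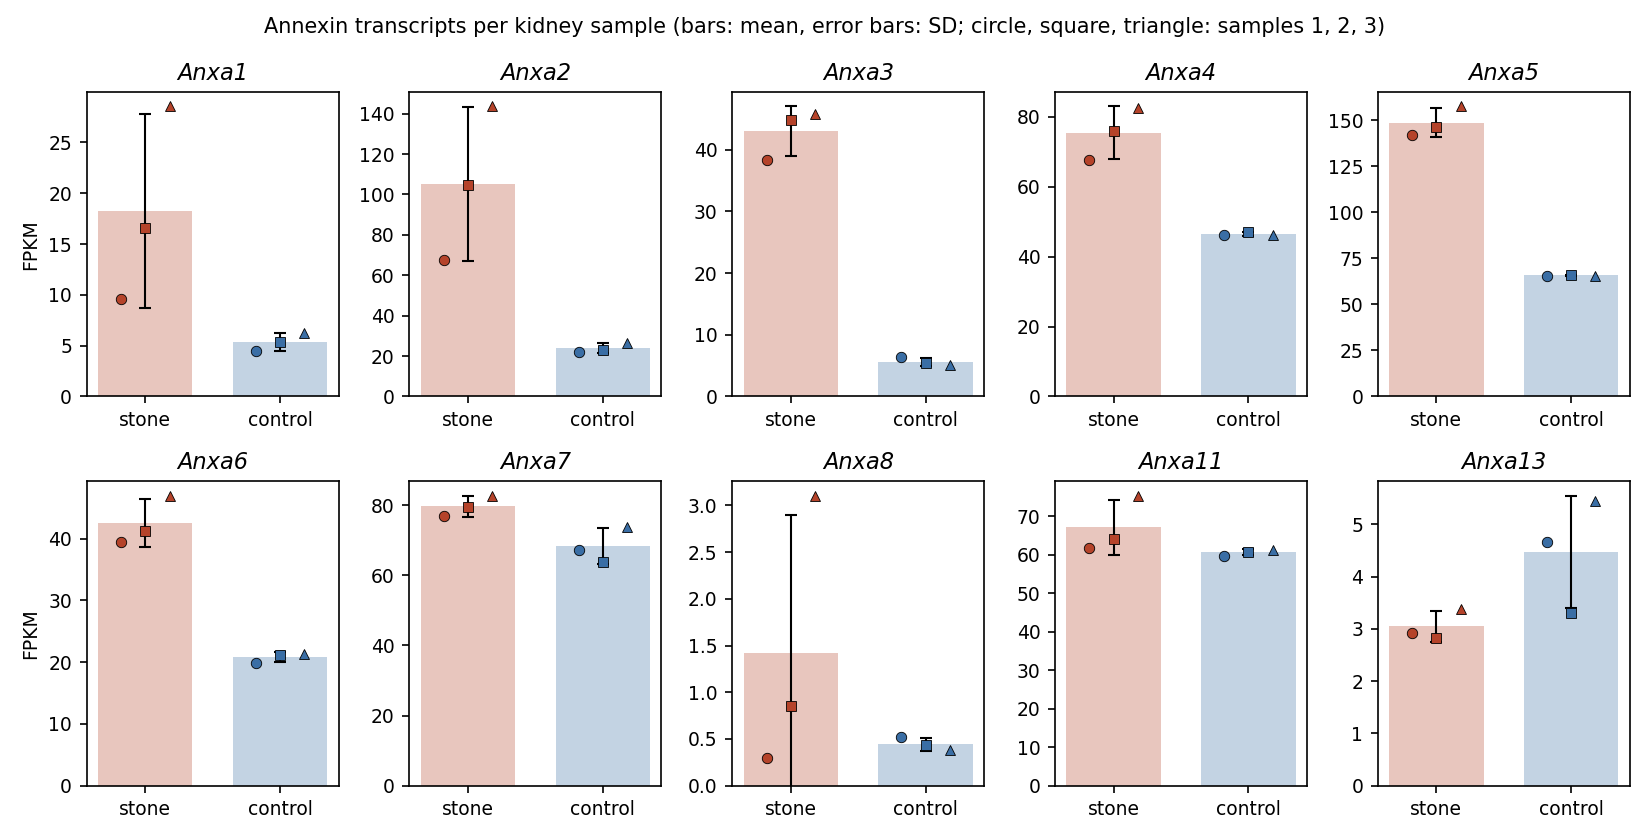
FPKM of the 10 annexin genes in each kidney sample, with stone samples in red and control samples in blue; bars give the group mean and error bars the SD (n = 3). For Anxa1 to Anxa7 and Anxa11 the groups were separate with stone samples higher, while Anxa8 and Anxa13 overlapped.

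**Figure D2:**
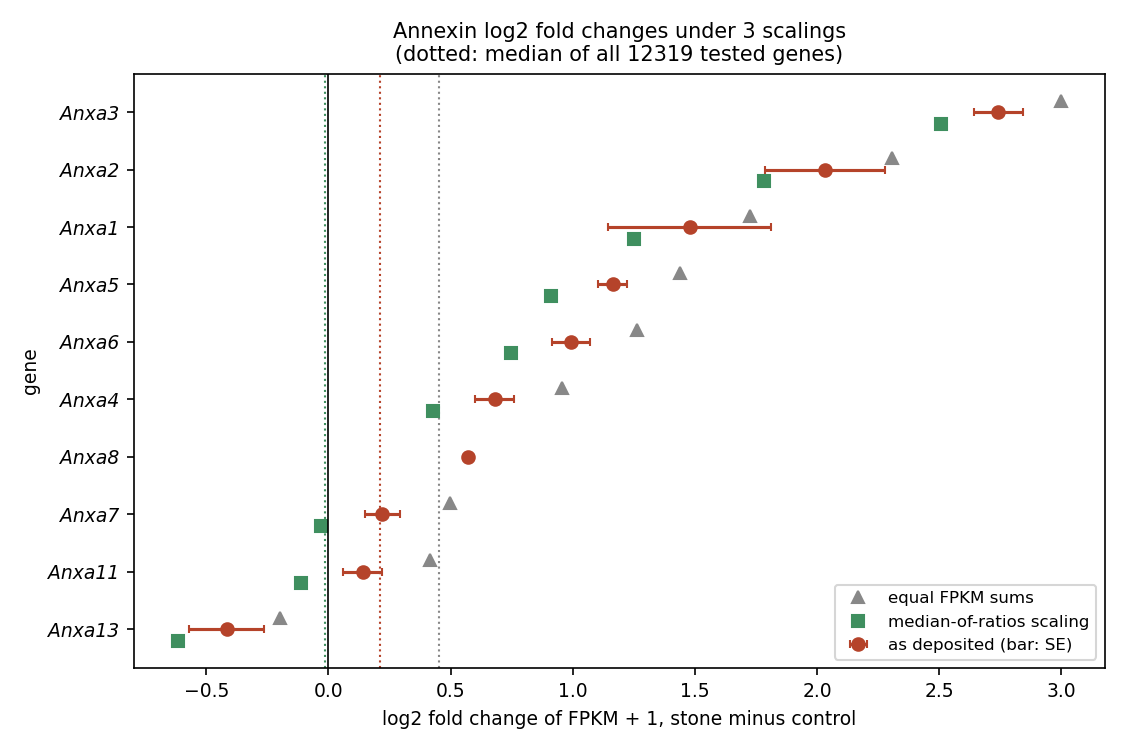
Log2 fold changes (stone minus control, FPKM + 1) of the annexin genes as deposited with their SE, with equal FPKM sums and with median-of-ratios scaling; dotted lines mark the median of all tested genes under each scaling. Anxa3, Anxa2 and Anxa1 lie farthest to the right, Anxa7 and Anxa11 lie near the medians, and Anxa8 is shown as deposited only because it was too low to be tested.

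Anxa2 had the second-largest change. Its gene lies on chromosome 9 from 69453683 to 69491792 on the plus strand (GRCm38.p6). Anxa2 measured 67.4, 104.7 and 143.5 FPKM in stone samples 1 to 3, against 21.9, 23.1 and 26.6 FPKM in control samples 1 to 3. Every stone sample was well above every control sample, and the stone samples themselves spread 2.13-fold. The log2 fold change was 2.03 ± 0.25 (SE; limma, BH-adjusted p = 0.000586), at percentile 98.9 of all tested genes. Without stone sample 3 the change was 1.78 (limma, BH-adjusted p = 0.000672), and without stone sample 1 it was 2.32 (limma, BH-adjusted p = 0.000134). Stone sample 1, with Anxa2 at 67.4 FPKM, had a urothelial sum of 2.62 FPKM, and the part of urothelial tissue in the Anxa2 result was not tested. GENCODE places an antisense RNA, Gm16144, across the gene, and RefSeq lists a pseudogene of Anxa2, Gm41080. The use of strand in counting was not stated, so reads of Gm16144 may be mixed with those of Anxa2. How reads that match both Anxa2 and its pseudogene were counted was not given either.

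Anxa1 varied most within the stone group among the tested members. Its gene spans 20373434 to 20390671 of chromosome 19, on the minus strand, and the long noncoding RNA 1500015L24Rik overlaps it on the other. Anxa1 measured 9.62, 16.6 and 28.5 FPKM in stone samples 1 to 3, against 4.51, 5.39 and 6.21 FPKM in control samples 1 to 3. The groups did not overlap, but the highest stone value was 2.97 times the lowest. The log2 fold change was 1.48 ± 0.33 (SE; limma, BH-adjusted p = 0.0079), and 1.11 without stone sample 3 (limma, BH-adjusted p = 0.00748). Markers of myeloid cells, in which annexin A1 is abundant, moved with it: 12 macrophage and monocyte markers summed to 246, 592 and 389 FPKM in stone samples 1 to 3, against 86.1, 80.1 and 85.6 FPKM in control samples 1 to 3. Of these 12 markers, 11 were called higher and 0 lower, against 43.5% and 13.9% of all tested genes. Adgre1, Ccr2, Cx3cr1, Fcgr1 and Itgam averaged below 1 FPKM in control kidneys and passed that minimum only through their stone values. Among stone samples the macrophage sum was highest in sample 2 and Anxa1 in sample 3. The part of myeloid cells in the result was not tested.

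The sequence before the start is shown for Anxa2, which differed widely among stone samples, and for Anxa5, which hardly did. Both are RefSeq sequence of GRCm38.p6, written 5′ to 3′ along the gene, and capitals mark motif matches. The windows searched were the 250 bases before each RefSeq start. The printed stretches stop where the earliest GENCODE M21 transcript begins, 63 bases before the RefSeq start for Anxa2 and 7 for Anxa5. Motifs were searched on both strands. The AP-1 motif was searched as TGANTCA, and the SP1 motif as GGGCGG. The TATA box was searched as TATAAA, and the E-box of the MYC type as CACGTG. The cyclic AMP response element was searched as TGACGTCA, the STAT motif as TTCNNNGAA, and the palindromic glucocorticoid response element by its full consensus.
Anxa2, chr9:69453433-69453619, plus strand: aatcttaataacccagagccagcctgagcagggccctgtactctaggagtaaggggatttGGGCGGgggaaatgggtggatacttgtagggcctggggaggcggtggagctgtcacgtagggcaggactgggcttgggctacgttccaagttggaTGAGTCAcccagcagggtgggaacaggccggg
Anxa5, chr3:36475895-36476137, minus strand: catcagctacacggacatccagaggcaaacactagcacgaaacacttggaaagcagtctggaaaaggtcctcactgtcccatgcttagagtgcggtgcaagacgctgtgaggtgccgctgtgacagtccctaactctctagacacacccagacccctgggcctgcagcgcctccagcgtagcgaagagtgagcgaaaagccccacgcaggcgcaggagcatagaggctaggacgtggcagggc
The Anxa2 window held 1 AP-1 match, TGAGTCA, 95 to 89 bases before the RefSeq start, together with 3 SP1 matches and 1 TATA match, of which the AP-1 match and 1 SP1 match lie in the printed stretch. The Anxa5 window held none of the motifs, and the Anxa1 window held 1 TATA match, 32 to 27 bases before its RefSeq start. A GENCODE transcript of Anxa1 begins 273 bases before that start, so the whole Anxa1 window lies within its span. An AP-1 match occurred in 6.75% of 32851 promoter windows of the same length, an SP1 match in 32.7% and a TATA match in 12.4%. Of the 7 members with a promoter entry (Anxa1, Anxa2, Anxa4, Anxa5, Anxa7, Anxa8 and Anxa11), 1 held an AP-1 match, 3 an SP1 match, 2 a TATA match and 1 an E-box, which 6.02% of all windows held. The other motifs were found in 0 of the 7, and in 1.55% (cyclic AMP response element), 7.02% (STAT) and 0.00913% (glucocorticoid response element) of all windows. These 7 members had 9 windows, 2 each for Anxa4 and Anxa7, and a member counted if any of its windows held the motif. The percentages count single windows. The E-box lay in the Anxa7 window of which 192 of 250 bases lie past the earliest annotated start. All matches are a description of the letters in the windows.

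Anxa3 had the largest change of the family. Annexin A3 is abundant in neutrophil granules and is also made by several epithelia, and its gene lies on chromosome 5 from 96793385 to 96845968 on the plus strand. Anxa3 measured 38.3, 44.8 and 45.7 FPKM in stone samples 1 to 3, against 6.32, 5.35 and 5.04 FPKM in control samples 1 to 3. The groups were far apart and each was tight, with the highest stone value 1.19 times the lowest. The mean was 43.0 ± 4.05 FPKM in stone kidneys and 5.57 ± 0.668 FPKM in control kidneys (SD, n = 3 each), a ratio of 7.71. The log2 fold change was 2.74 ± 0.10 (SE; limma, BH-adjusted p = 1.05e-05), at percentile 99.6 of all tested genes, and 2.70 without stone sample 3 (limma, BH-adjusted p = 5.9e-05).

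Markers of several cell types moved beside Anxa3 and the other members. The counts of markers called stand against 43.5% higher and 13.9% lower among all tested genes. The 8 neutrophil markers summed to 30.5, 21.7 and 20.9 FPKM in stone samples 1 to 3, against 2.24, 5.59 and 3.78 FPKM in control samples 1 to 3, and the 3 tested ones were called higher. Of these, Csf3r averaged 0.473 FPKM in control kidneys and passed the minimum of 1 FPKM only through its stone values. Ly6g, the defining surface marker of mouse neutrophils, was listed at 0 in 5 of the 6 samples and at 0.10 FPKM in stone sample 3. The 9 markers of injured tubule summed to 1796, 1851 and 2385 FPKM in stone samples 1 to 3, against 335, 352 and 288 FPKM in control samples 1 to 3, and all 9 were called higher. Krt20, Sox9 and Cd44 averaged 0.217, 0.123 and 0.387 FPKM in control kidneys, and passed the minimum of 1 FPKM only through their stone values. The 10 fibroblast and myofibroblast markers summed to 213, 348 and 343 FPKM in stone samples 1 to 3, against 72.3, 75.03 and 88.7 FPKM in control samples 1 to 3, and 9 were called higher. Of 5 podocyte markers 4 were called higher, of 9 proximal tubule markers 1 was called higher and 6 lower, and all 5 erythrocyte markers were called lower. The part of these cell types in the annexin results was not tested.

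Anxa5 was the most abundant member in stone kidneys. Its gene spans 36448923 to 36475887 of chromosome 3, on the minus strand. Anxa5 measured 142, 146 and 157 FPKM in stone samples 1 to 3, against 65.5, 66.1 and 65.6 FPKM in control samples 1 to 3. The highest value was 1.11 times the lowest among stone samples and 1.01 times among control samples, so the gap between groups was wide against the spread. The log2 fold change was 1.16 ± 0.06 (SE; limma, BH-adjusted p = 2e-05). It was 0.91 under median-of-ratios scaling (limma, BH-adjusted p = 5.86e-05) and 1.12 without stone sample 3 (limma, BH-adjusted p = 9.2e-05).

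Anxa6 and Anxa4 also rose, by less. Annexin A6 has a duplicated core and takes part in endosome and cholesterol traffic, and its gene lies on chromosome 11 from 54978953 to 55033471. Anxa6 measured 39.4, 41.2 and 46.9 FPKM in stone samples 1 to 3, against 19.9, 21.2 and 21.3 FPKM in control samples 1 to 3. Its log2 fold change was 0.99 ± 0.08 (SE; limma, BH-adjusted p = 0.000106), and 0.92 without stone sample 3 (limma, BH-adjusted p = 0.000264). Annexin A4 is an epithelial annexin with roles in secretion and membrane repair, and its gene lies on chromosome 6 from 86736840 to 86793634. Anxa4 measured 67.5, 76.0 and 82.7 FPKM in stone samples 1 to 3, against 46.2, 47.2 and 46.2 FPKM in control samples 1 to 3. Its log2 fold change was 0.68 ± 0.08 (SE; limma, BH-adjusted p = 0.000514), 0.43 under median-of-ratios scaling (limma, BH-adjusted p = 0.00263) and 0.61 without stone sample 3 (limma, BH-adjusted p = 0.00134). In both genes the 3 stone values lay above the 3 control values.

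Anxa7 and Anxa11, the members with long glycine- and proline-rich tails, stood near the typical gene. Annexin A7, or synexin, promotes fusion of secretory vesicles, and its gene lies on chromosome 14 from 20455261 to 20480133. Anxa7 measured 76.8, 79.5 and 82.7 FPKM in stone samples 1 to 3, against 67.3, 63.8 and 73.7 FPKM in control samples 1 to 3. Its log2 fold change of 0.22 passed as deposited (limma, BH-adjusted p = 0.0302) and turned to -0.032 under median-of-ratios scaling (limma, BH-adjusted p = 0.712), so no direction is settled. The call was also lost without stone sample 2 or 3 (limma, BH-adjusted p = 0.0796 and 0.0915) and without control sample 1 or 2 (limma, BH-adjusted p = 0.0886 and 0.081). Annexin A11 acts in cell division and tethers RNA granules to lysosomes, and its gene lies on chromosome 14 from 25842127 to 25886804, crossed by the antisense gene Anxa11os. Anxa11 measured 61.8, 64.2 and 75.4 FPKM in stone samples 1 to 3, against 59.8, 60.8 and 61.3 FPKM in control samples 1 to 3. The stone values were all above the controls, by as little as the gap between 61.8 and 61.3 FPKM, and the log2 fold change of 0.14 did not pass (limma, BH-adjusted p = 0.176). Without stone sample 3 it was 0.055 (limma, BH-adjusted p = 0.51). With equal FPKM sums Anxa11 was called higher, at 0.42 (limma, BH-adjusted p = 0.00361), and with median-of-ratios scaling it stood at -0.11 (limma, BH-adjusted p = 0.249). With Kap left out of the equal sums, Anxa11 stood at 0.10 without a call (limma, BH-adjusted p = 0.334).

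Anxa13 was the member with the lowest fold change. Annexin A13 is an epithelial annexin of intestine and kidney regarded as the founder of the vertebrate family, and its gene lies on chromosome 15 from 58341464 to 58389274. Anxa13 measured 2.93, 2.83 and 3.39 FPKM in stone samples 1 to 3, against 4.66, 3.31 and 5.44 FPKM in control samples 1 to 3. Control sample 2 lay below stone sample 3, so the groups overlapped. The log2 fold change of -0.42 with an SE of 0.15 missed the threshold (limma, BH-adjusted p = 0.052), as did -0.48 without stone sample 3 (limma, BH-adjusted p = 0.0615). Anxa13 was called lower under median-of-ratios scaling, at -0.62 (limma, BH-adjusted p = 0.00931), after quantile normalization, at -0.79 (limma, BH-adjusted p = 0.00247), and without control sample 2, at -0.58 (limma, BH-adjusted p = 0.00908), while equal FPKM sums gave -0.20 without a call (limma, BH-adjusted p = 0.302).

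Anxa8 averaged below the minimum of 1 FPKM and was highest in stone sample 3. Annexin A8 is a low-abundance annexin of stratified and injured epithelia that acts at late endosomes, and its gene lies on chromosome 14 from 34085979 to 34100571. Anxa8 measured 0.30, 0.85 and 3.10 FPKM in stone samples 1 to 3, against 0.52, 0.43 and 0.38 FPKM in control samples 1 to 3. Stone sample 1 was below all controls and stone sample 3 was 10.3 times stone sample 1. With a mean of 0.93 FPKM over the 6 samples Anxa8 was not tested, and when lower genes were admitted it did not pass (limma, BH-adjusted p = 0.232 with genes of at least 0.5 FPKM and 0.294 with no minimum). The gene A630023A22Rik overlaps it on the opposite strand. The part of urothelial tissue in stone sample 3 was not tested.

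**Figure D3:**
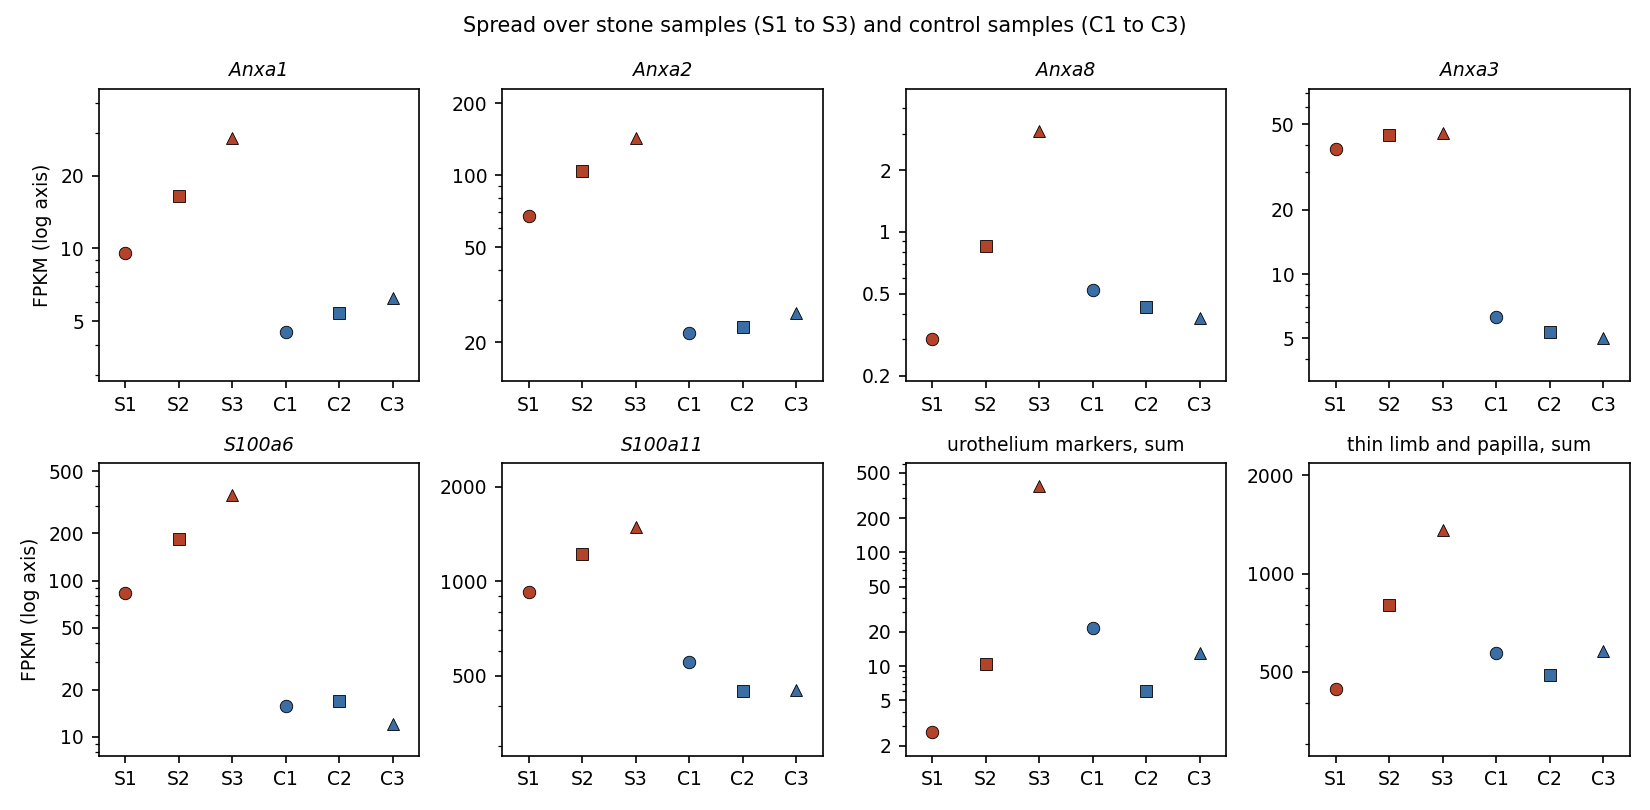
FPKM on a log axis in stone samples (S1 to S3, red) and control samples (C1 to C3, blue) for 4 annexins, 2 S100 partners and the sums of urothelial and of thin limb and papilla markers. Anxa1, Anxa2, Anxa8 and S100a6 are highest in stone sample 3, which has the urothelial sum of 379 FPKM, while Anxa3 differs little among stone samples. In that urothelial sum Psca holds 296 FPKM.

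Stone sample 3 had the highest value of the stone group in all 10 annexins. Among the 9 tested members this was 9, and across all tested genes stone sample 3 was the highest stone sample in 40.9%. The size of this spread differed between members. The ratio of the highest to the lowest stone value was 1.08 for Anxa7, 1.11 for Anxa5, 1.19 for Anxa3 and Anxa6, 1.20 for Anxa13, and 1.22 for Anxa4 and Anxa11. It was 2.13 for Anxa2, 2.97 for Anxa1 and 10.3 for Anxa8. Among control samples the same ratio was at most 1.64, in Anxa13.

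The order of abundance within the family changed. In stone kidneys the order of mean FPKM was Anxa5, Anxa2, Anxa7, Anxa4, Anxa11, Anxa3, Anxa6, Anxa1, Anxa13 and Anxa8. In control kidneys it was Anxa7, Anxa5, Anxa11, Anxa4, Anxa2, Anxa6, Anxa3, Anxa1, Anxa13 and Anxa8. In stone kidneys each of the 5 genes from Anxa5 to Anxa11 overlapped with its neighbour among them, as did Anxa3 with Anxa6 and Anxa13 with Anxa8, and the clear steps were from Anxa11 down to Anxa3, from Anxa6 to Anxa1 and from Anxa1 to Anxa13. In control kidneys Anxa7 overlapped with Anxa5, Anxa3 with Anxa1 and Anxa1 with Anxa13, and the other neighbours were separate.

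**Figure D4:**
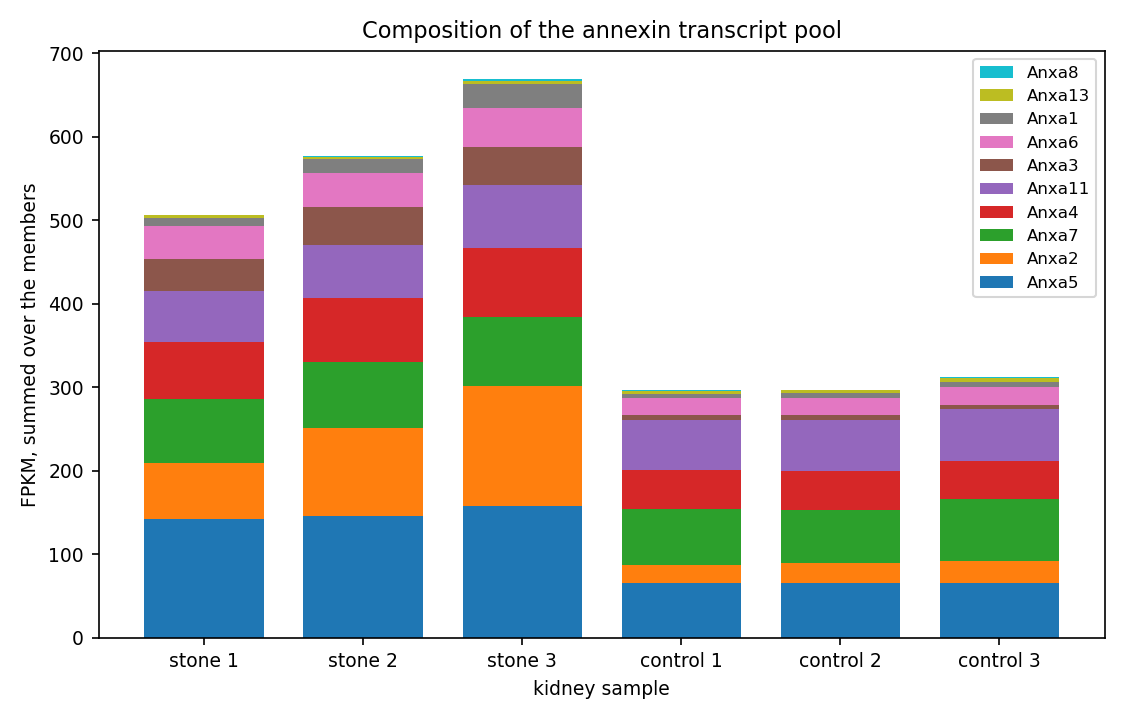
Stacked FPKM of the 10 annexin genes in each of the 6 kidney samples. The pool is larger in stone samples (506 to 669 FPKM) than in control samples (297 to 312 FPKM), and the Anxa5 and Anxa2 segments show the largest gains in FPKM.

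As a share of the family sum, Anxa2 made up 17.6 ± 4.09% in stone kidneys and 7.90 ± 0.580% in control kidneys (SD, n = 3 each). Anxa3 made up 7.39 ± 0.495% in stone kidneys and 1.85 ± 0.261% in control kidneys. Anxa7 held 13.8 ± 1.40% in stone kidneys and 22.6 ± 1.08% in control kidneys, and Anxa11 held 11.5 ± 0.587% in stone kidneys and 20.1 ± 0.428% in control kidneys. Shares do not depend on a factor that multiplies a whole sample, and these 4 did not overlap between groups. The shares of Anxa4, Anxa5 and Anxa13 did not overlap either. A share falls when the other members rise by more. Anxa6 differed little in share, at 7.31 ± 0.413% in stone kidneys and 6.90 ± 0.216% in control kidneys.

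Genes of S100 proteins that bind annexin tails were higher as well. The counts of related genes that follow stand against 43.5% higher and 13.9% lower among all tested genes as deposited, 22.5% and 26.2% under median-of-ratios scaling, and 68.5% and 6.47% with equal FPKM sums. Of 7 direct partners tested, 6 rose and 0 fell as deposited, against 43.5% and 13.9% of all genes, and 5 rose and 0 fell with median-of-ratios scaling. Without stone sample 3 the count was 5 higher and 0 lower. S100a10, the partner of annexin A2, measured 360, 375 and 366 FPKM in stone samples 1 to 3, against 165, 179 and 149 FPKM in control samples 1 to 3 (log2 fold change 1.16, limma, BH-adjusted p = 6.12e-05). S100a10 did not share the spread of Anxa2 over the stone samples. The ratio of Anxa2 to S100a10 was 0.188, 0.279 and 0.392 in stone samples 1 to 3, against 0.132, 0.129 and 0.179 in control samples 1 to 3, so the groups were separate with stone sample 1 close to control sample 3. The ratio of Anxa2 to Anxa5 was 0.474, 0.716 and 0.911 in stone samples 1 to 3, against 0.335, 0.350 and 0.406 in control samples 1 to 3.

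S100a6, which binds annexins A2 and A11, showed a wider spread. S100a6 measured 83.0, 184 and 352 FPKM in stone samples 1 to 3, against 15.7, 16.9 and 12.1 FPKM in control samples 1 to 3 (log2 fold change 3.48, limma, BH-adjusted p = 0.000842). The call stood without stone sample 3 (limma, BH-adjusted p = 0.000739). S100a11, the partner of annexin A1, measured 921, 1217 and 1482 FPKM in stone samples 1 to 3, against 552, 446 and 450 FPKM in control samples 1 to 3 (log2 fold change 1.30, limma, BH-adjusted p = 0.000957). Without stone sample 3 its change was 1.14 (limma, BH-adjusted p = 0.00178). The ratio of Anxa1 to S100a11 overlapped between groups, at 0.0104, 0.0136 and 0.0193 in stone samples 1 to 3 and 0.00817, 0.0121 and 0.0138 in control samples 1 to 3. S100a4 rose by 1.22 log2 units (limma, BH-adjusted p = 0.00142). The calcium sensor Pdcd6, which binds annexins A7 and A11, stood at 0.082 and did not pass (limma, BH-adjusted p = 0.286).

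Plasminogen activation, which the annexin A2 complex promotes at the cell surface, was represented by 6 tested genes, of which 4 rose and 0 fell as deposited, against 43.5% and 13.9% of all genes. Plat, the tissue plasminogen activator gene, measured 29.5, 53.5 and 56.2 FPKM in stone samples 1 to 3, against 8.11, 9.56 and 10 FPKM in control samples 1 to 3 (log2 fold change 2.16, limma, BH-adjusted p = 0.000356). Plaur, the urokinase receptor gene, rose by 2.78 log2 units (limma, BH-adjusted p = 3.36e-05). Plau, the urokinase gene, rose by 0.58 as deposited (limma, BH-adjusted p = 0.00564), a call lost under median-of-ratios scaling (limma, BH-adjusted p = 0.0568), which left 3 higher and 0 lower. Plg, the gene of plasminogen itself, is made mainly in liver and was at most 0.30 FPKM in any sample.

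Most genes of the annexin A1 axis averaged below the minimum of 1 FPKM. The receptor genes Fpr1 and Fpr2 were at 0.13 to 0.45 FPKM and 0.20 to 0.64 FPKM in stone samples, against 0 to 0.07 FPKM each in control samples, so both averaged below the minimum. With no minimum both were called higher, by 0.38 for Fpr1 and 0.48 for Fpr2 on the log2(FPKM + 1) scale (limma, BH-adjusted p = 0.0257 and 0.0164). That setting called 5853 of 17587 genes higher, and no other setting tested Fpr1 or Fpr2. Depth is unknown, so the precision of values this low cannot be given. Of 3 tested genes of this list 2 rose and 0 fell, under median-of-ratios scaling too, beside 43.5% of all genes called higher as deposited. Alox5ap, a leukotriene synthesis gene, rose by 1.72 log2 units (limma, BH-adjusted p = 0.00056), and Pla2g4a, the cytosolic phospholipase A2 gene, rose by 0.74 (limma, BH-adjusted p = 0.00283). Among 7 glucocorticoid-induced genes 5 rose and 0 fell as deposited, against 43.5% and 13.9% of all genes, and 4 rose and 1 fell with median-of-ratios scaling. Without stone sample 3, 4 rose and 0 fell. Sgk1, a kinase gene that also responds to aldosterone, measured 205, 185 and 213 FPKM in stone samples 1 to 3, against 22.8, 39.3 and 41.6 FPKM in control samples 1 to 3 (log2 fold change 2.55, limma, BH-adjusted p = 0.000124). Fkbp5, Zbtb16 and Per1 rose by 0.89, 1.01 and 1.03 on the log2 scale (limma, BH-adjusted p = 0.000135, 0.000398 and 0.0131). Zbtb16 averaged 0.423 FPKM in control kidneys and passed the minimum of 1 FPKM only through its stone values. Per1 ranged from 7.55 to 18.3 FPKM in control samples and from 23.6 to 26.8 FPKM in stone samples. Tsc22d3 also rose, by 0.50 (limma, BH-adjusted p = 0.0421), a call lost under median-of-ratios scaling (limma, BH-adjusted p = 0.26).

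Genes of plasma membrane repair, a process in which annexins A1, A2, A4, A5 and A6 take part, numbered 18 among those tested, and 12 rose and 0 fell, against 43.5% and 13.9% of all genes. Under median-of-ratios scaling 9 rose and 2 fell, with equal FPKM sums 18 rose and 0 fell, and without stone sample 3 the count was 11 higher and 0 lower. Myof, which encodes the ferlin myoferlin, measured 27.96, 29.0 and 36.7 FPKM in stone samples 1 to 3, against 3.33, 2.67 and 3.62 FPKM in control samples 1 to 3 (log2 fold change 2.93, limma, BH-adjusted p = 1.4e-05). Dysf, the gene of dysferlin, which also reseals membrane in muscle, rose by 1.12 log2 units (limma, BH-adjusted p = 0.000931). The caveolin gene Cav2 rose by 1.01 and the calpain gene Capn2 by 0.79 (limma, BH-adjusted p = 0.0003 and 0.000755).

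Phosphatidylserine is the lipid that annexin A5 binds on dying cells. Of 12 tested genes for its recognition, Anxa5 included, 9 rose and 1 fell as deposited, against 43.5% and 13.9% of all genes. Among those that rose, Elmo1 averaged 0.613 FPKM in control kidneys and passed the minimum of 1 FPKM only through its stone values. The counts were 8 higher and 1 lower with median-of-ratios scaling, and 11 higher and 0 lower with equal FPKM sums. Havcr1, the gene of the phosphatidylserine receptor and injury marker KIM-1, measured 113, 184 and 137 FPKM in stone samples 1 to 3, against 0.95, 5.22 and 0.99 FPKM in control samples 1 to 3 (log2 fold change 5.63, limma, BH-adjusted p = 0.000105). The bridging protein genes Pros1 and Mfge8 rose by 1.56 and 1.24 on the log2 scale (limma, BH-adjusted p = 3.65e-05 and 0.000121). Mertk, a receptor kinase gene for clearance of dying cells, fell by 0.38 as deposited (limma, BH-adjusted p = 0.00175), and with equal FPKM sums stood at -0.12 without a call (limma, BH-adjusted p = 0.164).

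Lipid scramblases and flippases, which set how much phosphatidylserine is exposed, had called genes in both directions. Of 12 tested genes 5 rose and 3 fell as deposited, and the share that rose was near the 43.5% of all genes. The counts were 4 higher and 3 lower with median-of-ratios scaling, and 8 higher and 2 lower with equal FPKM sums. Atp11a, a flippase gene, measured 64.7, 90.7 and 80.2 FPKM in stone samples 1 to 3, against 338, 270 and 347 FPKM in control samples 1 to 3 (log2 fold change -2.01, limma, BH-adjusted p = 7.58e-05). Tmem30a, the gene of the chaperone subunit of flippases, fell by 0.61 log2 units (limma, BH-adjusted p = 0.00049), and Plscr4 fell by 0.38 as deposited (limma, BH-adjusted p = 0.0159), a call lost with equal FPKM sums at -0.13 (limma, BH-adjusted p = 0.306). The scramblase genes Plscr3 and Plscr1 rose by 1.05 and 0.72 (limma, BH-adjusted p = 7.05e-05 and 0.000136), and the flippase genes Atp8a1 and Atp11b rose by 0.85 and 0.36 (limma, BH-adjusted p = 0.00789 and 0.00356), the last not called under median-of-ratios scaling (limma, BH-adjusted p = 0.203).

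Copines and ferlins bind phospholipid through calcium as annexins do, but with C2 domains. Of 8 tested genes of these families 7 rose and 1 fell as deposited, against 43.5% and 13.9% of all genes, with a median log2 fold change of 1.08 against 0.99 for the annexins, and 6 rose and 1 fell with median-of-ratios scaling. Beside Myof and Dysf, which are in this list too, Cpne7 rose by 1.04 and Cpne4 fell by 0.74 log2 units (limma, BH-adjusted p = 0.00143 and 0.00174). Cpne7 averaged 0.897 FPKM in control kidneys and passed the minimum of 1 FPKM only through its stone values. Cpne1 rose by 0.40 as deposited (limma, BH-adjusted p = 0.0019), but was no longer called under median-of-ratios scaling (limma, BH-adjusted p = 0.125).

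**Figure D5:**
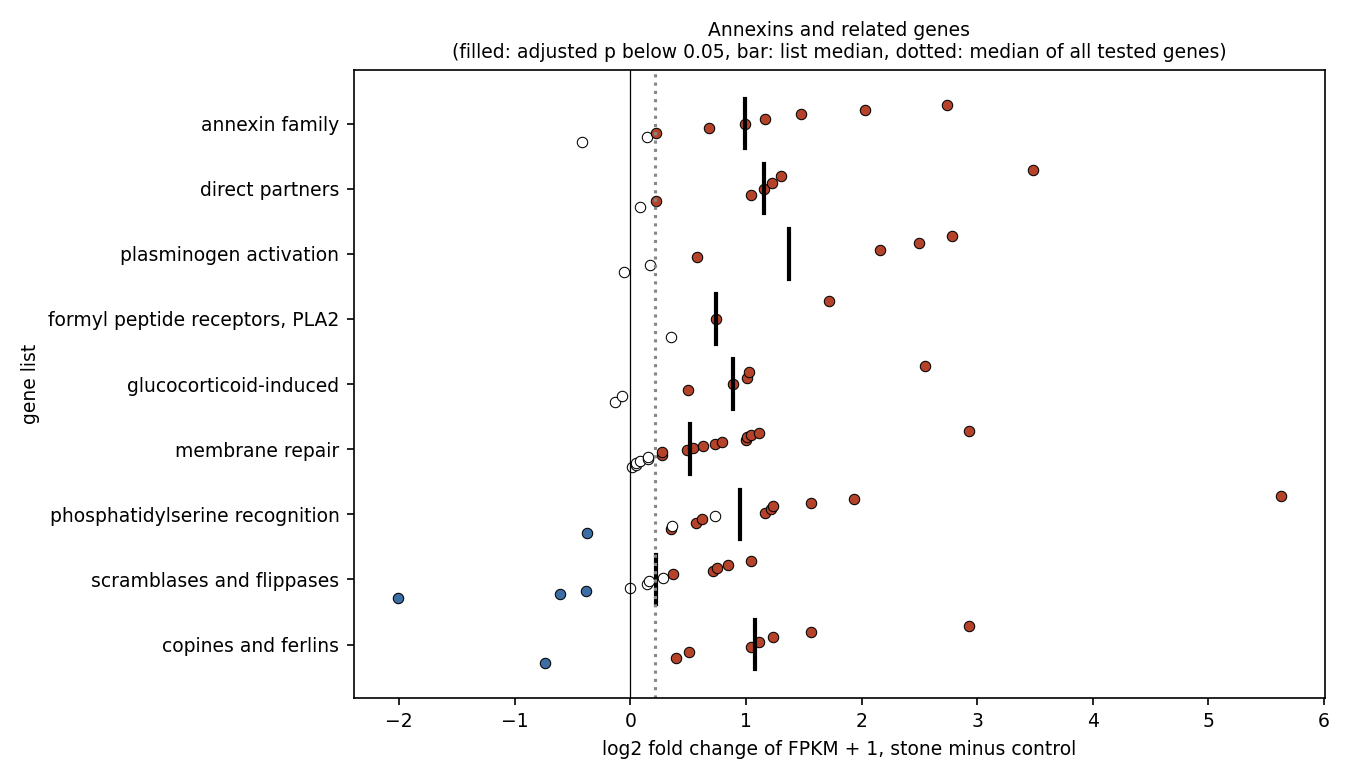
Log2 fold change (stone minus control, FPKM + 1) of each tested gene in the annexin family and 8 related lists; filled points passed adjusted p below 0.05, bars give the list median and the dotted line the median of all tested genes at 0.21. The annexin median is 0.99 and that of copines and ferlins 1.08, while scramblases and flippases hold called genes on both sides.

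The genes whose profile over the 6 samples came closest to that of a member were found by Euclidean distance between log2(FPKM + 1) values, each taken relative to its control mean. For Anxa3 these were Edn1, the endothelin-1 gene, at a distance of 0.216, the chemokine gene Ccl12 at 0.406 and Plaur at 0.472. Edn1 measured 8.39, 9.09 and 8.96 FPKM in stone samples 1 to 3, against 0.83, 0.44 and 0.43 FPKM in control samples 1 to 3. For Anxa5, the most abundant member over all samples, they included Rras2 at 0.0816 and Tax1bp3 at 0.0935. For Anxa13 they were Zpld1 at 0.223, Epm2a at 0.245 and Erbb3 at 0.267.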

How the data were processed

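The submitters' processing notes name HISAT2 2.0.4 and the build GRCm38.p6. FPKM was computed by the authors and deposited as 1 column per sample. The quantification program, annotation, use of strand and total fragment number were not given in the sources used here. Absolute depth is unknown and no counting intervals are given. Values of single fragments, estimated from 18 genes near 0, differed by at most 0.0707 log2 units from their mean. Genes entered this estimate only if their values above 0 lay close together, so it cannot show a larger difference in depth. limma 3.58.1 in R 4.3.3 (eBayes with trend, two-sided) was run on log2(FPKM + 1), which understates the change of low genes. The test covered the 12319 genes averaging 1 FPKM or more, with Benjamini-Hochberg adjustment over all of them, and was tested on simulated data. A gene averaging less was not tested. A gene low in control kidneys could pass this minimum through its stone values alone, and the reverse holds too. The labels do not say that each sample came from a separate mouse, so p-values measure only the spread between samples, which may be technical. Members and lists were chosen with earlier results of these data known. Named list genes are up to 4 called genes per direction with the smallest p, plus S100a10 and S100a11. Pdcd6, Plg, Fpr1, Fpr2, Umod, Upk2, Krt15, Ly6g, Kap and Psca were added after their values were seen. So were Krt20, Sox9, Cd44, Csf3r, Adgre1, Ccr2, Cx3cr1, Fcgr1, Itgam, Elmo1, Aqp1, Slc14a2 and Tsc22d3. Some genes that this rule names are not reported here. Coordinates and promoters are RefSeq for GRCm38.p6, and overlaps are from GENCODE M21.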

Additional observations from a re-analysis of the deposited data

How the results depend on the processing

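Scaling moved the counts over all genes most. Median-of-ratios scaling gave 2776 genes higher and 3222 lower, quantile normalization 2762 and 3108, and equal FPKM sums 8440 and 797, against 5356 and 1711 as deposited. For the tested annexins the median log2 fold change was 0.99, and it moved to 0.75 under the first of these scalings and 1.26 under the last. Equal FPKM sums without Kap gave 4528 genes higher and 1831 lower, 6 annexins higher and 0 lower, and an annexin median of 0.96. The count of annexins called lower was 0 as deposited and 1 with median-of-ratios scaling, quantile normalization, array weights and the replicate block, and each time the gene was Anxa13. Anxa7 turned to -0.032 with median-of-ratios scaling. Leaving out 1 sample at a time gave 4265 to 5242 genes higher, 1360 to 1697 lower, 6 to 7 annexins higher, 0 to 1 lower and an annexin median of 0.92 to 1.04. The replicate block, which pairs samples by number alone, gave 4861 genes higher and 1517 lower. Deviations of same-numbered samples correlated at 0.0075, -0.22 and -0.0397, so the numbers were not taken to pair samples. With the replicate block Anxa13 was called lower, at -0.42 (limma, adjusted p = 0.0342), as it was with array weights, at -0.50 (limma, adjusted p = 0.00316). The causes were not tested. Depth is unknown, so the precision of low genes such as Anxa8 cannot be given.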
